A study of Mus musculus with 13 samples.

Results

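The subject here is the MYC and MAX network, described by 10 genes chosen by name: Myc, Mycn, Max, Mxd1, Mxd3, Mxd4, Mxi1, Mnt, Mlx and Mga. These 10 genes were among 35906 genes to which the quantified transcripts could be summed, and all 10 had transcripts in the files. RNA was sequenced from M2 CD4 single-positive (CD4SP) thymocytes, the CD69-MHCI+ cells of the last maturation stage in the mouse thymus, which had been sorted by flow cytometry. Every mouse was Rag1-/- and carried the Lm54 transgene, which encodes a T cell receptor for a listeriolysin O (LLO) peptide on I-Ab, so that all T cells shared 1 receptor. The genotypes compared were CtslΔTEC, in which Foxn1-cre removes the protease cathepsin L from thymic epithelial cells (TECs) and not from the thymocytes themselves, and controls that the labels call Ctsl fl/fl (WT). Unstimulated cells came from 5 CtslΔTEC and 4 WT mice. Stimulated cells came from 2 CtslΔTEC and 2 WT mice and were held for 4 h on plate-bound LLO:I-Ab monomer at 1 µg/ml with soluble anti-CD28 at 250 ng/ml. Each library came from 1 mouse on a C57BL/6J background, and the study states an age range for its phenotypic analyses in general and none for these libraries in particular. The question was whether thymocytes selected on TECs without cathepsin L differ in these genes, at rest and after antigen.

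MYC is a transcription factor that binds DNA as a dimer with MAX and raises the expression of genes for ribosome assembly, nucleotide and amino acid supply and cell cycle entry. The MXD proteins (MXD1, MXD3, MXD4 and MXI1) and MNT bind MAX as well, recognise the same E-box sites and recruit SIN3 and histone deacetylases, which lowers transcription, so they compete with MYC for MAX and for DNA. MLX is a MAX-like partner of the glucose-sensing factors MLXIP and MLXIPL, and MGA joins MAX in a Polycomb complex. In T cells, Myc RNA is known to rise soon after receptor engagement, and MYC drives the growth that precedes division.

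Because network proteins bind the E-box, the promoters of the members were read for its letters, CACGTG, a word that is its own reverse complement, so that 1 search covers both strands. Windows from 250 bases before to 50 bases after the start site came from RefSeq (GRCm38.p6) for 9 of the 10 members, with 3 windows for Mxi1, and Myc had no entry. A match was present once in each window of Max, Mxd4, Mnt and Mlx. Mycn, Mxd1, Mxd3, Mga and all 3 windows of Mxi1 held none. Over all genes with a window the share was 8.09% (2187 of 27025), and over the genes tested here with a window it was 11.2% (1165 of 10443). The 4 matches are shown with 12 bases on each side, 5′ to 3′ on the gene's strand and with the E-box in capitals, because they are the letters these members share:
Max, chr12:76962234-76962263, minus strand: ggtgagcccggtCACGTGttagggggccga
Mxd4, chr5:34187912-34187941, minus strand: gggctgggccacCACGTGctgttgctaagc
Mnt, chr11:74830789-74830818, plus strand: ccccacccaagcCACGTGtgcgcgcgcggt
Mlx, chr11:101087238-101087267, plus strand: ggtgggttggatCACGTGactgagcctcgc
The E-box began 3 bases before the start site in Max, 219 in Mxd4, 123 in Mnt and 40 in Mlx.

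For Mxd4 and Mnt, the antagonist that fell most and the one that rose after stimulation, the 250 bases before the start site are shown whole, again with the E-box in capitals. They cover chr5:34187711-34187960 on the minus strand for Mxd4 and chr11:74830674-74830923 on the plus strand for Mnt.
Mxd4: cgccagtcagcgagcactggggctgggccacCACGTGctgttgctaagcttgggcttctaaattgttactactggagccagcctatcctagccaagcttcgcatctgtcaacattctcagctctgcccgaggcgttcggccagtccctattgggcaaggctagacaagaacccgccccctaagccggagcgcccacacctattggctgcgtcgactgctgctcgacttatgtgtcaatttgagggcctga
Mnt: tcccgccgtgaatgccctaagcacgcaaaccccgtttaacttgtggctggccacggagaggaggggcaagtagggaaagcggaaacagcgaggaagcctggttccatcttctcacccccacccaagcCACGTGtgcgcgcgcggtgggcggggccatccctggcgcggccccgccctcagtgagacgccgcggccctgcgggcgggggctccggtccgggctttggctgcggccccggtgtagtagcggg
Both promoters thus held 1 E-box, while their RNA levels went opposite ways. A match describes the letters and does not show that any network protein was bound there.

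Libraries of unstimulated cells held 25692380 to 39127833 estimated counts, and those of stimulated cells 8085463 (WT mouse 5) to 27184520. Cd4 lay between 327 and 604 TPM (a transcript level scaled to length and to the library's total) in all 13 libraries, and Foxn1, Krt5 and Krt8, which define TECs, did not exceed 0.0782 TPM in any. Other genes of the 7-gene TEC list were detected: group means were 1.36 to 9.73 TPM for Epcam, 0.345 to 4.63 TPM for Prss16 and 0.423 to 0.729 TPM for Psmb11, and the list summed to 13 to 23.2 CPM, Ctsl included, with no test of its part in the results. Ctsl, which Foxn1-cre does not target in thymocytes, was 6.77, 5.41, 5.73 and 9.03 TPM in unstimulated WT mice 1 to 4 and 10.7 to 16.5 TPM in the 5 unstimulated CtslΔTEC libraries, and from 2.01 to 4.79 TPM after stimulation, so it does not check the labels. The 4 Y-linked genes were high in all 5 unstimulated CtslΔTEC mice, in 1 of 4 unstimulated WT mice and in 1 of 2 mice of each stimulated group. Markers of double-positive (DP) thymocytes summed to 451 to 530 CPM (counts scaled to the library's total) in unstimulated CtslΔTEC libraries and 124 to 175 CPM in WT libraries. Of 9 DP markers tested 8 passed as higher, where 6.42% of all genes did. Of 7 markers of mature CD4SP cells 5 were lower and 2 higher in unstimulated CtslΔTEC cells, where 8.36% of all genes were lower and 6.42% higher. Erythroid markers, led by the haemoglobin genes Hbb-bs and Hba-a2, summed to 50 to 92.9 CPM in unstimulated WT, 43.2 to 174 CPM in unstimulated CtslΔTEC and 2.71 to 18.8 CPM in stimulated libraries. The 5 of these 6 genes that were tested were lower after stimulation in both genotypes, the genotypes overlapped in the sum in both states, and their part in the results was not tested. Unstimulated CtslΔTEC mice 1 and 3 and WT mouse 4 carried a first file date and the other 6 unstimulated libraries a second. The stimulated libraries carried a date of their own, so that date and stimulation cannot be told apart. No library came from cells cultured for 4 h without antigen. The responses below therefore hold the effect of culture together with that of antigen and anti-CD28. Changes below are log2 fold changes from edgeR's quasi-likelihood test, adjusted over all genes by the Benjamini-Hochberg method, and a gene passed when its adjusted p was under 0.1.

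In unstimulated cells, Max, the shared partner, was the most abundant member in both genotypes, at 168 ± 7.4 TPM in WT (SD, n = 4) and 176 ± 23.4 in CtslΔTEC cells (n = 5). Mxd4 followed at 92.8 ± 5.73 and 91.2 ± 10.9 TPM. Mlx (62.1 and 58.2 TPM) and Myc (59.5 and 56.4 TPM) came next and overlapped each other over libraries in both genotypes. Below them stood Mga (37.8 and 40.8 TPM), then Mnt (24.4 and 24.8 TPM) and Mxi1 (21.6 and 24.2 TPM), the last pair overlapping in both genotypes, then Mxd1 (8.56 and 9.88 TPM). Mxd3 was 0.155 to 1.20 TPM in every library, and Mycn had 0 to 5 counts per library and could not be tested. After stimulation Myc stood first, at 777 ± 151 TPM in WT and 963 ± 136 TPM in CtslΔTEC cells (n = 2 each), and Max second. Mxd4 fell from second to sixth place in both genotypes.

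**Figure D1:**
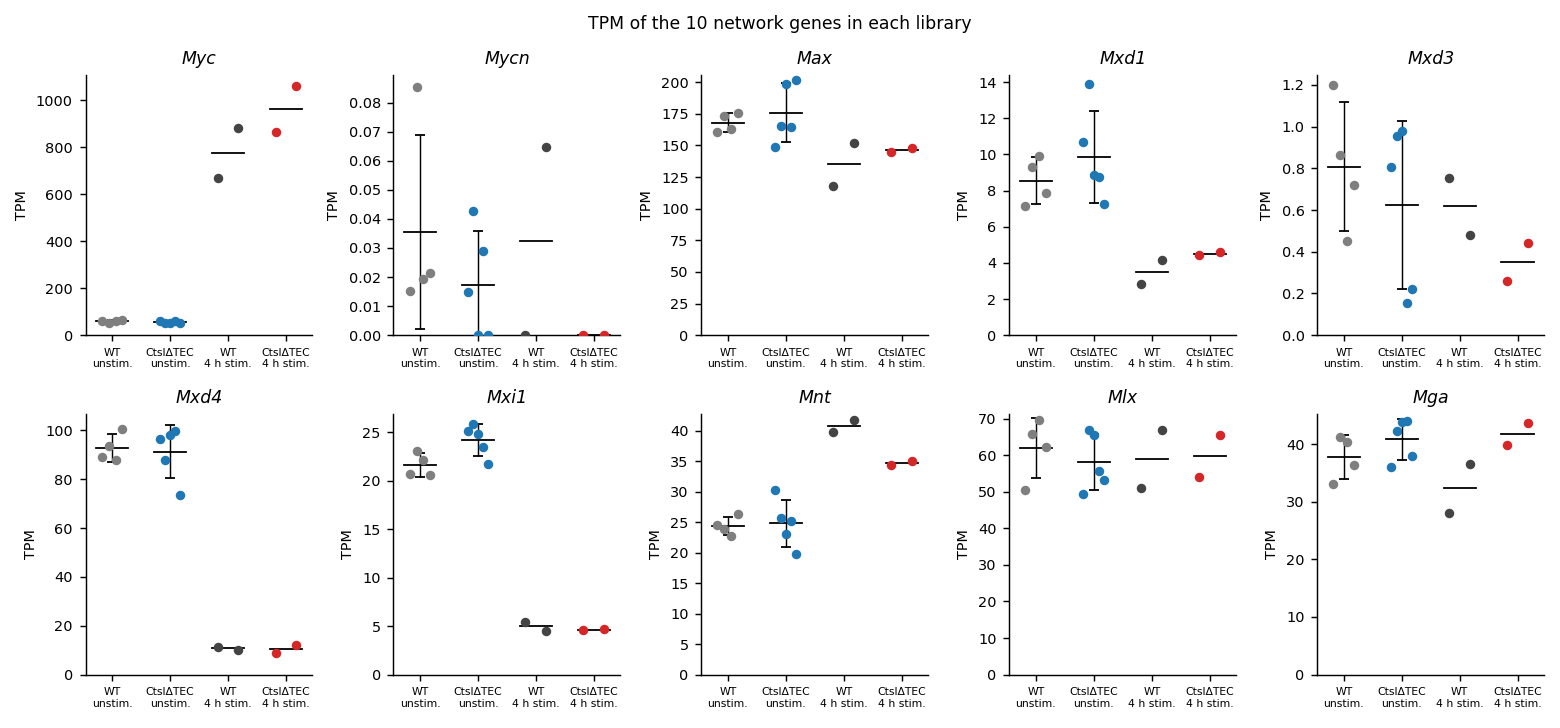
TPM of each network gene (y axis, linear from 0, a scale of its own for each gene) in the 13 libraries, by genotype and stimulation (x axis); each point is 1 mouse, the line is the mean, and bars are ± SD for the unstimulated groups of 4 and 5. Myc stood at 50.8 to 65.3 TPM in all 9 unstimulated libraries and at 671 to 1059 TPM in the 4 stimulated libraries, whereas Mxd4, Mxi1 and Mxd1 were lower in all 4 stimulated libraries than in any unstimulated one.

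Myc, the activator, was higher in stimulated cells of both genotypes. Myc was 50.8, 61.9, 65.3 and 60.0 TPM in WT mice 1 to 4 and 671 and 884 TPM in stimulated WT mice 5 and 6. In CtslΔTEC mice 1 to 5 it was 62.2, 52.9, 53.2, 53.9 and 60.1 TPM, against 866 and 1059 TPM in stimulated mice 6 and 7. Stimulated and unstimulated libraries did not overlap, and the lowest stimulated library was WT mouse 5, which was also the shallowest. The rise was 3.76 ± 0.13 (log2 fold change ± SE, 13.6-fold, adjusted p = 7.2e-12) in WT and 4.13 ± 0.12 (17.5-fold, adjusted p = 8.92e-13) in CtslΔTEC cells. By size of the rise, Myc ranked 267 of 7153 genes that were higher in stimulated WT cells and 217 of 6828 in CtslΔTEC cells. In bulk RNA, fewer cells with the transcript and less transcript per cell cannot be told apart.

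Of the 9 members tested, 6 passed the threshold in each response: Myc and Mnt rose, and Max, Mxd1, Mxd4 and Mxi1 fell. This stands against a background in which 67.7% of 14241 genes passed in WT cells (32.9% higher and 34.8% lower) and 71.2% in CtslΔTEC cells (32.9% higher and 38.2% lower), so the share of members that passed was close to that of all genes. The sizes for Myc, Mxd4 and Mxi1 were among the larger ones, with Mxd4 at rank 446 of 7086 and Mxi1 at rank 998 among genes lower in stimulated WT cells. Each of these 6 directions was the same in all alternative settings in which the response was computed.

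Mxd4, the antagonist with the highest level at rest, fell most. It was 93.8, 88.0, 100.6 and 89.0 TPM in WT mice 1 to 4 and 11.2 and 10.2 TPM in stimulated WT mice 5 and 6. CtslΔTEC mice 1 to 5 had 96.6, 73.5, 88.1, 98.2 and 99.8 TPM, and stimulated mice 6 and 7 had 8.87 and 12.3 TPM. No stimulated library came near an unstimulated one. The fall was -2.95 ± 0.17 in WT (adjusted p = 1.57e-09) and -3.04 ± 0.17 in CtslΔTEC cells (adjusted p = 6.89e-10), that is 7.75-fold and 8.2-fold lower.

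Mxi1, which encodes the antagonist MXI1 (also called MXD2), followed the same course at a lower level. Unstimulated WT mice 1 to 4 had 23.1, 22.2, 20.5 and 20.7 TPM, and stimulated mice 5 and 6 had 5.47 and 4.47 TPM. In CtslΔTEC mice 1 to 5 the level was 25.1, 21.7, 25.8, 24.8 and 23.4 TPM, against 4.56 and 4.66 TPM in stimulated mice 6 and 7. It fell by 2.13 on the log2 scale in WT (SE 0.14, adjusted p = 3.91e-09) and by 2.48 in CtslΔTEC cells (SE 0.14, adjusted p = 5.26e-10). Its pattern was closest to that of Mxd4, with a root mean square difference of 0.35 in centred log2 CPM over the 13 libraries.

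Mxd1, an antagonist known for rising as cells differentiate, was a minor member. It was 9.32, 9.91, 7.85 and 7.14 TPM in WT mice 1 to 4 and 2.85 and 4.18 TPM in stimulated mice 5 and 6. CtslΔTEC mice 1 to 5 had 10.7, 7.23, 13.9, 8.85 and 8.75 TPM, and stimulated mice 6 and 7 had 4.41 and 4.59 TPM. The stimulated libraries lay below all unstimulated ones in each genotype. The change was -1.28 ± 0.16 in WT (adjusted p = 5.62e-06) and -1.36 ± 0.16 in CtslΔTEC cells (adjusted p = 1.85e-06). Mxd3, which is known from proliferating cells, had 3 to 38 counts per library, and its responses of -0.53 (95% interval -2.11 to 1.05) and -0.31 (-1.91 to 1.29) were not resolved at this depth. It also overlaps Prelid1 on the other strand.

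Mnt, the antagonist that most cells express throughout the cell cycle, moved the other way. WT mice 1 to 4 had 23.8, 22.8, 26.4 and 24.5 TPM and stimulated mice 5 and 6 had 39.8 and 41.7 TPM. In CtslΔTEC mice 1 to 5 it was 30.3, 19.8, 25.7, 23.1 and 25.2 TPM, rising to 34.3 and 35.0 TPM in mice 6 and 7. Every stimulated library was above every unstimulated library. The rise was 0.84 ± 0.10 in WT (1.78-fold, adjusted p = 5.52e-06) and 0.64 ± 0.10 in CtslΔTEC cells (1.55-fold, adjusted p = 5.11e-05).

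Max, the partner of MYC and of the antagonists alike, changed little. It was 173, 163, 176 and 161 TPM in WT mice 1 to 4 and 118 and 152 TPM in stimulated mice 5 and 6. In CtslΔTEC mice 1 to 5 it was 149, 202, 165, 199 and 164 TPM, and 145 and 148 TPM in stimulated mice 6 and 7. The groups were separate within each genotype, but in CtslΔTEC cells only narrowly, at 148.3 against 148.8 TPM. The fall was -0.25 ± 0.09 in WT (adjusted p = 0.0258) and -0.22 ± 0.09 in CtslΔTEC cells (adjusted p = 0.0335). It no longer passed without stimulated WT mouse 6 (-0.19, adjusted p = 0.189), without CtslΔTEC mouse 3 (-0.16, adjusted p = 0.144), without stimulated CtslΔTEC mouse 6 (-0.18, adjusted p = 0.197), with an offset for transcript length (-0.18, adjusted p = 0.224) or when each library had to hold 10 counts of a gene (-0.15, adjusted p = 0.12), the last 2 in CtslΔTEC cells.

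Mlx and Mga did not pass in either response. Mlx was 50.5 to 69.5 TPM in unstimulated WT and 51.0 and 67.0 TPM in stimulated WT libraries, and 49.5 to 66.9 TPM against 54.2 and 65.7 TPM in CtslΔTEC libraries, so the groups overlapped throughout. Its changes were -0.03 (95% interval -0.26 to 0.20) and 0.04 (-0.19 to 0.26). Mga, the largest protein of the network and a subunit of the Polycomb complex PRC1.6, was 33.0 to 41.3 TPM and then 28.1 and 36.6 TPM in WT, and 36.0 to 43.9 TPM and then 39.9 and 43.7 TPM in CtslΔTEC cells. Its changes were -0.21 (-0.52 to 0.10) and -0.02 (-0.31 to 0.28). In WT cells the Mga change passed when library totals alone set the scale (-0.30, adjusted p = 0.0838), with upper-quartile factors (-0.29, adjusted p = 0.096) or without unstimulated WT mouse 4 (-0.29, adjusted p = 0.0657).

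**Figure D2:**
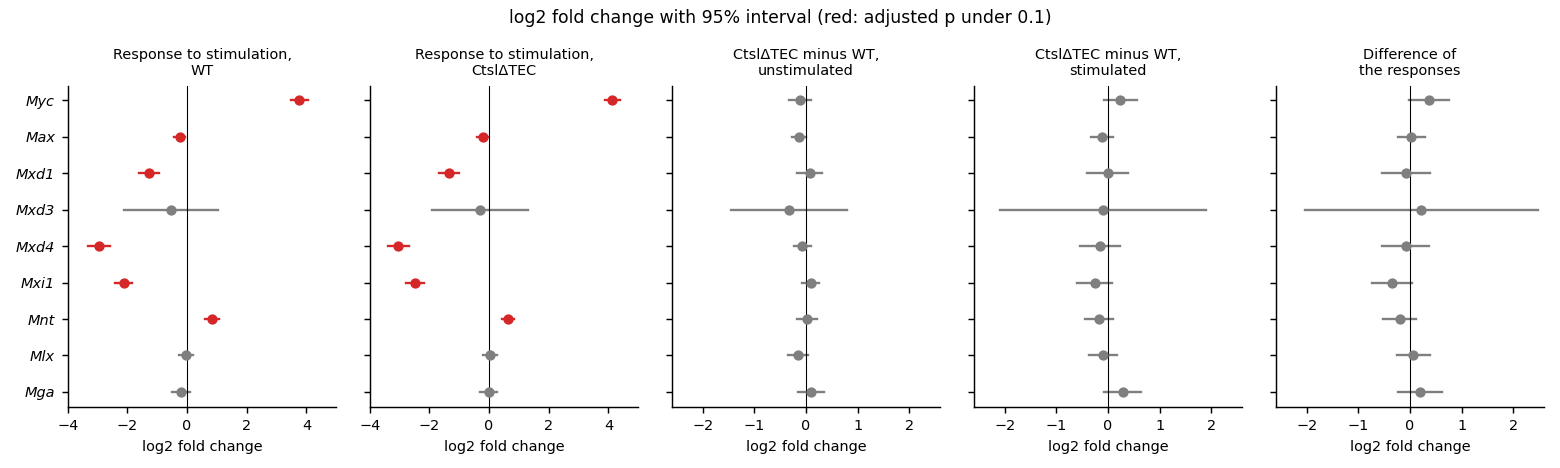
log2 fold change (x axis; its range differs between the responses and the other panels) of the 9 tested members (y axis) in the 5 comparisons, with 95% intervals from the edgeR fits; red marks adjusted p under 0.1. The 6 members that passed were the same in both responses, from Myc at 3.76 and 4.13 to Mxd4 at -2.95 and -3.04, and no member passed in a comparison of genotypes or in the difference of the responses.

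Read together per library, the make-up of the network changed. Myc took 10.4 to 13.5% of the summed TPM of the 10 genes in unstimulated libraries and 72.3 to 77.1% in stimulated ones. The sum itself went from 447 to 518 TPM to 928 to 1374 TPM, while the antagonists Mxd1, Mxd3, Mxd4, Mxi1 and Mnt together went from 122 to 163 TPM to 52.4 to 61.0 TPM. The ratio of Myc to the summed antagonists was 0.337, 0.432, 0.418 and 0.421 in unstimulated WT mice 1 to 4, and 0.380, 0.432, 0.345, 0.346 and 0.382 in CtslΔTEC mice 1 to 5. It was 11.2 and 14.5 in stimulated WT mice 5 and 6, and 16.5 and 18.6 in stimulated CtslΔTEC mice 6 and 7. The genotypes overlapped at rest, and after stimulation both CtslΔTEC libraries lay above both WT libraries. Since WT mouse 5 was the shallowest library and the groups hold 2 mice each, this ordering is given as values only.

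Among the antagonists, the leading gene changed. Mxd4 made up 57.1 to 64.4% of antagonist TPM at rest and 16.7 to 21.5% after stimulation. Mnt made up 14.8 to 18.5% at rest and 61.5 to 68.3% after stimulation. Mxi1 went from 13.2 to 17.7% to 7.33 to 9.11%, and Mxd1 from 5.01 to 8.99% to 4.74 to 8.42%, so Mxd1 held a like share in both states. Myc per Max was 0.262 to 0.418 at rest and 5.69 to 7.14 after stimulation. TPM measure RNA, and the amounts of the proteins were not measured here.

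**Figure D3:**
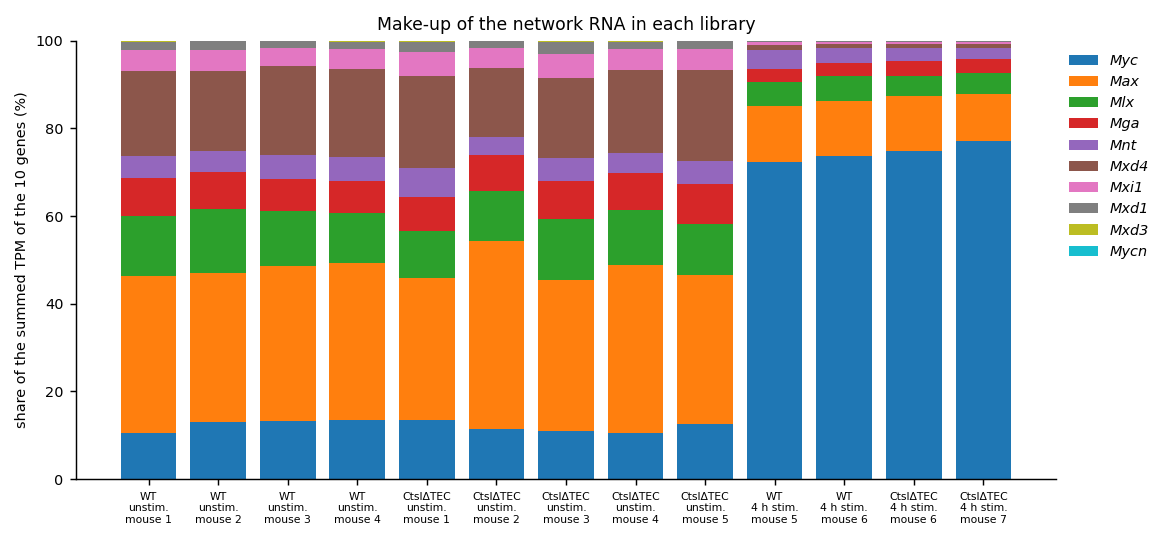
Share of the summed TPM of the 10 network genes (y axis, %) taken by each gene, stacked, in each of the 13 libraries (x axis). Max and Mxd4 take the largest parts of the 9 unstimulated bars, and Myc takes 72.3 to 77.1% of each of the 4 stimulated bars.

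Between genotypes, no member differed in unstimulated cells by the tests applied. Of 9 members tested, 0 passed by edgeR, 0 by DESeq2 and 0 had an unadjusted p under 0.05, against 14.8% of all 13152 genes called by edgeR. Myc differed by -0.11 (95% interval -0.33 to 0.10, adjusted p = 0.532). The members nearest the threshold were Max, at -0.14 (-0.28 to 0.00, adjusted p = 0.226), and Mlx, at -0.16 (-0.35 to 0.03, adjusted p = 0.29). For Mxd4 the difference was -0.07 (-0.23 to 0.10), for Mxi1 0.09 (-0.07 to 0.25), for Mxd1 0.07 (-0.17 to 0.31), for Mnt 0.02 (-0.17 to 0.22) and for Mga 0.09 (-0.16 to 0.34). The groups overlapped in TPM for all 10 genes. The interval of Mxd3, -1.45 to 0.79, was too wide to be read. With the Y-linked level as a covariate, within the second file date alone or with date as a factor, the count of members that passed was again 0. Over all genes the count went from 1943 to 430 with the covariate, which mostly followed genotype, and to 2710 with date as a factor. The second date alone held fewer mice. A count of 0 with the covariate or within that date therefore adds little.

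In stimulated cells 0 of 9 members passed between genotypes by edgeR, 0 by DESeq2 and 0 at an unadjusted p under 0.05, against 13.3% of 14241 genes by edgeR. Myc was 0.24 higher in CtslΔTEC cells on the log2 scale (-0.07 to 0.56, adjusted p = 0.366). Mga was 0.28 higher (-0.08 to 0.63, adjusted p = 0.352), with both CtslΔTEC libraries above both WT libraries in TPM, and Mnt 0.18 lower in the fit, at -0.18 (-0.44 to 0.09, adjusted p = 0.437), with both CtslΔTEC libraries below both WT libraries. Mxd1 was higher in TPM in both CtslΔTEC libraries but differed by -0.01 (-0.41 to 0.39) in counts, so its order depended on the scale.

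The test of whether the responses themselves differed also passed for 0 of 9 members by edgeR, 0 by DESeq2 and 0 at an unadjusted p under 0.05, where 6.01% of 14241 genes passed by edgeR. Myc rose 0.36 more on the log2 scale in CtslΔTEC cells (-0.02 to 0.75, unadjusted p from edgeR = 0.0644, adjusted p = 0.346). Mxi1 fell 0.35 further, at -0.35 (-0.74 to 0.04, adjusted p = 0.371). For the other members the estimates ran from -0.20 (Mnt, -0.52 to 0.12) to 0.22 (Mxd3, -2.03 to 2.48).

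Transcripts of a gene can change without its sum, so the share of each gene's TPM taken by single transcripts was compared by a two-sided exact permutation test. In the unstimulated comparison of genotypes, 18 transcripts of 8 members held at least 10% of their gene, and 0 passed an adjusted p of 0.1, as did 0% of 23552 transcripts of all genes under the same rule, of which 7.23% had an unadjusted p under 0.05. The smallest p that splits of the 9 mice allow is 0.00794. By the unadjusted exact test 1 transcript was under 0.05: Mnt-201 took 96.0 ± 2.0% of Mnt in CtslΔTEC and 92.3 ± 2.39% in WT cells (p = 0.0397, adjusted p over the transcripts of all genes = 0.652).

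Between stimulated and unstimulated libraries, genotypes pooled, 10 of 24 transcripts passed, from 5 members, with p adjusted over 26359 transcripts of all genes. Of all those transcripts 37.3% passed, so the share of the members' transcripts was close to the background. Mlx, whose sum was level, changed in its transcripts. Mlx-203, a coding transcript, took 4.19 to 10.3% of Mlx in the 9 unstimulated libraries and 22.7 and 17.4% in stimulated WT mice 5 and 6 and 22.1 and 12.7% in stimulated CtslΔTEC mice 6 and 7 (exact permutation p = 0.0014, the smallest the design allows, adjusted p = 0.0105). Mlx-202, the largest coding transcript at rest, went from 36.2 ± 3.39% (n = 9) to 27.5 ± 1.57% (n = 4, exact permutation p = 0.0028, adjusted p = 0.0162). Neither transcript's stimulated libraries overlapped the unstimulated ones.

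For Mxi1, Mxi1-203 went from 75.7 ± 4.56% of the gene to 55.6 ± 9.65% (exact permutation p = 0.0014, adjusted p = 0.0105), with 63.3% in stimulated WT and 48.0% in stimulated CtslΔTEC cells. This rests on few reads, because Mxi1 had 61 to 189 counts in the stimulated libraries. Within Myc the mix moved less: the pair Myc-201 and Myc-205, whose estimates were equal in every library and which are counted as 1, took 40.8 ± 5.33% at rest and 42.3 ± 2.62% after stimulation (exact permutation p = 0.594). Myc-202 went from 22.3 to 17.1% and Myc-203 from 8.5 to 14.6% (adjusted p = 0.0258 and 0.0302 by the exact permutation test), and for both the stimulated and unstimulated libraries overlapped. Myc-203 was 10.1 to 13.8% in the 3 unstimulated libraries of the first file date, 4.88 to 8.53% in the 6 of the second and 12.4 to 18.7% in the stimulated ones. Max-206, which the annotation marks for nonsense-mediated decay, took 39.3 ± 8.1% of Max at rest and 42.2 ± 8.09% after stimulation (exact permutation p = 0.573), so that the coding part of Max is smaller than its summed TPM. Without stimulated CtslΔTEC mouse 7, 6 transcripts passed in place of 10. The shares carry kallisto's estimation error, which the spread between mice does not include.

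**Figure D4:**
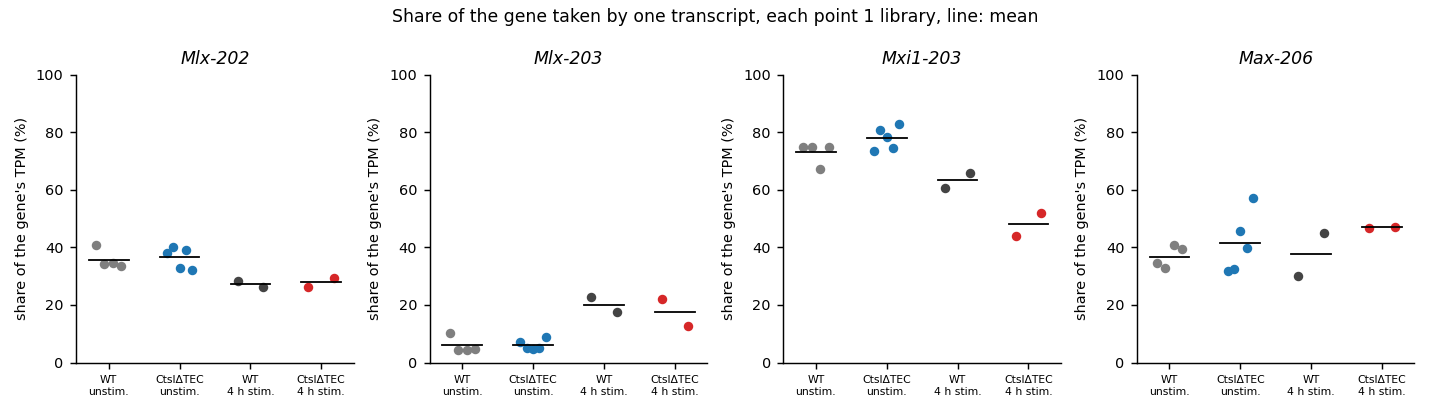
Share of the gene's TPM (y axis, %) taken by Mlx-202, Mlx-203, Mxi1-203 and Max-206 in each library (points), by group (x axis); the line is the group mean. The stimulated libraries lie below the unstimulated ones for Mlx-202 and Mxi1-203 and above them for Mlx-203, and the groups overlap for Max-206.

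The genes through which the network acts were counted from lists written from general knowledge, with earlier results of these data already known. The counts are therefore not independent of these data. Of 38 genes known to be activated by MYC, all 38 passed as higher after stimulation in WT cells and all 38 in CtslΔTEC cells, where 32.9% of all genes did in each. The median change was 2.03 in WT and 2.20 in CtslΔTEC cells, against 0.01 and -0.06 over all genes tested. The ends of the range in counts, picked after the values were seen, were Ldha, the lactate dehydrogenase subunit, at 0.62 and 0.60, Hk2, a hexokinase, at 5.07 in WT cells, and Odc1, the rate-limiting enzyme of polyamine synthesis, at 5.30 in CtslΔTEC cells. The upper end depended on the scale. In TPM, Hk2 was low and went from a mean of 0.786 to 6.26 in WT cells, while Odc1 went from 24.7 to 639 and Shmt1 from 8.91 to 207. Shmt1, a serine hydroxymethyltransferase of one-carbon metabolism, rose by 4.42 (adjusted p = 3.5e-13) and 5.05 (adjusted p = 2.36e-14), and Slc7a5, an amino acid transporter subunit, by 3.96 and 3.75. Nolc1 and Gnl3, which serve the nucleolus, rose by 2.41 in WT and by 3.27 in CtslΔTEC cells, respectively. All 38 passed in every alternative setting, each library left out in turn included. All 8 markers of T cell activation rose as well, from summed levels of 319 to 751 CPM to 10800 and 12800 CPM in WT and from 292 to 506 CPM to 13500 and 13700 CPM in CtslΔTEC cells, and the part of that in these counts was not tested.

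**Figure D5:**
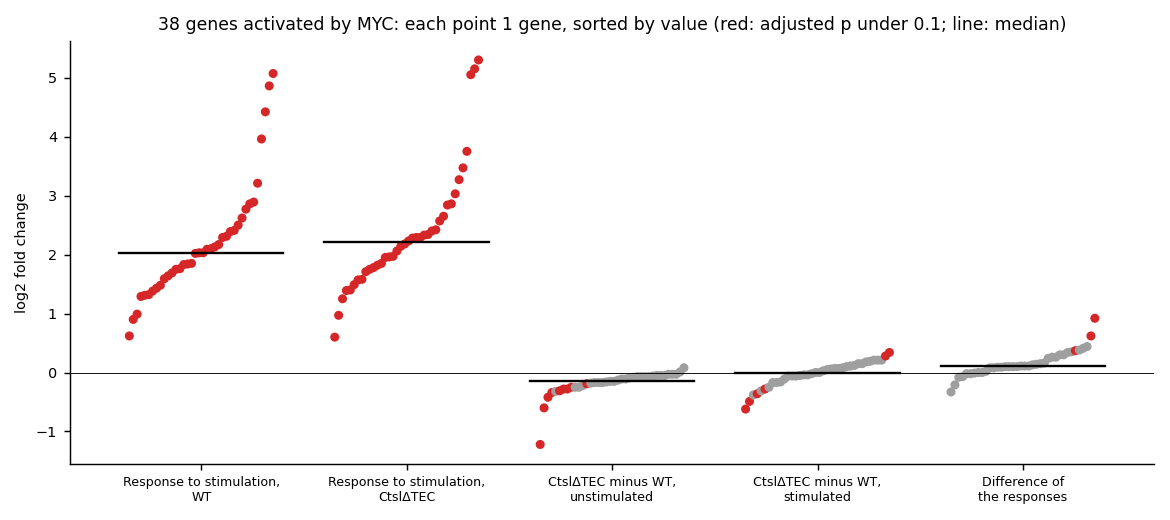
log2 fold change (y axis) of the 38 genes activated by MYC in the 5 comparisons (x axis), each point 1 gene in order of its value; red marks adjusted p under 0.1 and lines are medians. The points are above 0 for all 38 genes in both responses, with medians of 2.03 and 2.20. Between genotypes the median is -0.15 in unstimulated and 0.00 in stimulated cells.

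At rest, 9 of the 38 were lower in CtslΔTEC cells and 0 were higher (by DESeq2 11 were lower and 0 higher, and 0 were higher at an unadjusted p under 0.05 by edgeR), where 8.36% of all genes tested were lower. The median of the list was -0.15, against 0.01 over all genes. Ccnd2, which encodes cyclin D2, showed the largest difference: it was 97.7 to 133 TPM in WT mice 1 to 4 and 50.6, 38.8, 52.8, 54.2 and 60.7 TPM in CtslΔTEC mice 1 to 5 (-1.22 ± 0.11, adjusted p = 4.92e-05). Ldha was 574 to 637 TPM in WT and 377 to 492 TPM in CtslΔTEC libraries (-0.60 ± 0.07, adjusted p = 0.000192), and Nme1, a nucleoside diphosphate kinase, was 59.4 to 79.2 TPM and 37.6 to 57.8 TPM (-0.34, adjusted p = 0.0132). For these 3 genes the genotypes did not overlap, narrowly so for Nme1. They were named for the smallest p of the list, so the lack of overlap adds no support. The share of all genes without overlap was not counted. The other 6, outside the naming rule and named after their values were seen, were Cdk4, Cad, Shmt1, Prmt5, Slc7a5 and Eif4a1, at -0.42 to -0.19. The count was 3 with the Y-linked level as a covariate, 9 within the second file date alone, 3 by limma on log2(TPM + 0.5), 4 with an offset for transcript length and 5 without WT mouse 2. It was 12 with file date as a factor, 12 without WT mouse 1 and 13 without CtslΔTEC mouse 1. DP thymocyte markers moved with genotype here, with 8 of 9 tested higher in CtslΔTEC cells, and their part in these differences was not tested.

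After stimulation, 4 of the 38 were lower in CtslΔTEC cells (Ldha -0.62, Slc7a5 -0.49, Cad -0.36 and Prmt5 -0.28) and 2 were higher (Gnl3 0.34 and Wdr43 0.28; these and Prmt5 fall outside the naming rule here), with a median of 0.00 against -0.05 over all genes. Of all genes 10.6% were lower and 2.77% higher, so the share of lower genes in the list was close to that of the background. In these stimulated libraries the DP markers summed to 85.2 and 94.3 CPM in CtslΔTEC and to 40.5 and 45.2 CPM in WT cells, and the sum of the activation markers was also higher in both CtslΔTEC libraries, although of its 8 genes Il2 alone passed, as lower (-3.55). The part of both lists in these differences was not tested. Without stimulated CtslΔTEC mouse 6, and likewise without stimulated WT mouse 5, these counts were 1 lower and 0 higher. Without stimulated CtslΔTEC mouse 7 they were 2 and 0, and without stimulated WT mouse 6 they were 5 and 1. The response was larger in CtslΔTEC cells for Ccnd2 (0.92, adjusted p = 0.0526), Shmt1 (0.62, adjusted p = 0.024) and Eif4a1 (0.37, adjusted p = 0.0913), the 3 of 38 that passed the test of the difference. Of all genes 6.01% passed it and 1.13% did so with a positive difference, CtslΔTEC minus WT, which includes genes that fell less in CtslΔTEC cells. None of the 38 passed without stimulated CtslΔTEC mouse 7 or without stimulated WT mouse 5, and 1 passed without stimulated CtslΔTEC mouse 6. The E-box CACGTG was in the promoter window of 10 of the 31 list genes that have one (32.3%), beside 11.2% of the tested genes with a window. The share was 2 of 6 both for the genes repressed by MYC and for the other MAX and MLX network genes. It was 8.33 to 14.3% for the remaining lists of cofactors, complexes and turnover genes.

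Of 7 tested genes known to be repressed by MYC, 3 passed as higher and 3 as lower in WT, and 4 as higher and 2 as lower in CtslΔTEC cells. Cdkn1a, which encodes the cell cycle inhibitor p21, was 0.042 to 0.269 TPM at rest and 19.8 to 32.8 TPM after stimulation, a rise of 8.14 in WT (adjusted p = 3.45e-12) and 8.18 in CtslΔTEC cells (adjusted p = 9.91e-13). Cdkn1b, which encodes the inhibitor p27, went from 127 to 180 TPM to 14.4 to 31.4 TPM (-2.40 and -2.88). Ndrg1, a stress-response gene, was 29.7 to 34.1 TPM in unstimulated WT and 9.37 to 12.9 TPM in CtslΔTEC libraries (-1.63 ± 0.10, adjusted p = 1.2e-06). On stimulation it rose by 3.10 and by 4.48, and these responses differed by 1.38 (adjusted p = 0.000856). Gadd45b, a stress-induced gene, rose by 7.40 and 6.41, and these responses did not pass the test of the difference (-0.99, adjusted p = 0.685). At rest it was 15, 13.6 and 6.59 TPM in CtslΔTEC mice 1 and 3 and WT mouse 4, of the first file date, and 0.726 to 2.99 TPM in the other 6 libraries, so its resting level differed with date.

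The counts for the lists of repressed genes, cofactors, complexes and turnover genes stand beside 67.7% of all genes that passed in WT and 71.2% in CtslΔTEC cells, with 32.9% higher in each, and nothing particular to a list is read from them. Among proteins that work with MYC, 9 of 13 genes for coactivators and MIZ1 rose and 2 fell in each response. Zbtb17, which encodes MIZ1, rose by 2.33 and 2.15, Wdr5 by 1.55 and 1.61 and Ruvbl1 by 1.73 and 1.84, whereas the genes that fell, named after their values were seen, were Trrap (-0.52 and -0.68) and Ep300 (-1.37 and -1.19). Of the 11 genes of the corepressor complex that MXD proteins and MNT recruit, 5 rose and 5 fell in WT, and 4 rose and 5 fell in CtslΔTEC cells. Sap30 rose by 1.85 and 2.26 and Rbbp7 by 0.70 and 0.76, while Sin3a fell by 0.36 and 0.59 and Ncor1 by 0.68 and 0.42. Of 9 genes of the MGA complex PRC1.6, 5 rose and 2 fell in WT, and 6 rose and 1 fell in CtslΔTEC cells, with Pcgf6 at 1.96 and 1.90, Tfdp1 at 1.37 and 1.46 and Cbx3 at -1.51 and -1.85. Tfdp1 was lower in unstimulated CtslΔTEC cells (-0.39, adjusted p = 0.00655), a call that was lost with the Y-linked level as a covariate. Between stimulated cells, 1 gene of each of these 3 lists was lower in CtslΔTEC cells, where 10.6% of all genes were lower. These were the acetyltransferase gene Kat2a (-0.44, adjusted p = 0.0292) among 13 coactivator genes, the deacetylase gene Hdac1 (-0.28, adjusted p = 0.0951) among 11 corepressor genes and Cbx3 (-0.49, adjusted p = 0.0196) among 9 genes of PRC1.6. The coactivator list lost its lower gene without stimulated CtslΔTEC mouse 6 or WT mouse 6, PRC1.6 without CtslΔTEC mouse 7 or WT mouse 5, and the corepressor list without any one of the 4 stimulated libraries.

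Of 12 genes that control how long MYC protein lasts, 4 rose in each response, and 5 fell in WT and 4 in CtslΔTEC cells. Usp36, a deubiquitinase known to stabilise MYC, rose by 1.73 and 1.81. Gsk3b, a kinase that marks MYC for degradation, fell by 1.26 and 1.57, and Ppp2r5a, a phosphatase subunit, by 1.59 and 1.46. The lower genes of the list at rest numbered 2, Ppp2r5a and Usp28, where 8.36% of all genes were lower. They numbered 1 with the Y-linked covariate, with mouse number as a replicate block, with the length offset or by limma on TPM. Ppp2r5a was lower in unstimulated CtslΔTEC cells (-0.28, adjusted p = 0.0151) and Gsk3b in stimulated ones (-0.32, adjusted p = 0.0662), the latter the 1 lower gene of 12 there, beside 10.6% of all genes. The list had no lower gene in stimulated cells without CtslΔTEC mouse 6, CtslΔTEC mouse 7 or WT mouse 6. Usp28, another deubiquitinase of MYC, was 41.8, 46.1, 43.6 and 30.6 TPM in WT mice 1 to 4 and 26.4, 29.8, 30.4, 28.2 and 23.8 TPM in CtslΔTEC mice 1 to 5. Every CtslΔTEC library was below every WT library, narrowly so for WT mouse 4. The difference was -0.73 ± 0.09 (adjusted p = 0.000335), and its small p was the reason for naming Usp28. Its response differed between genotypes by 0.88 (adjusted p = 0.0119), with -0.82 in WT and 0.06 in CtslΔTEC cells. By limma on log2(TPM + 0.5) no gene of the list passed this test of the difference.

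In the MLX branch and among other E-box factors, 5 of 8 genes could be tested. Txnip, an MLX target that limits glucose uptake, was 336 to 640 TPM at rest and 14.8 to 33.7 TPM after stimulation, a change of -4.05 in WT (adjusted p = 3.27e-08) and -4.72 in CtslΔTEC cells (adjusted p = 6.32e-09). Mlxip, which encodes the MLX partner, rose by 1.10 and 1.08, and the E-box factor Usf1 fell by 1.50 and 1.95. Mycl, Mlxipl and Arrdc4 had at most 8 counts in any library. Tfap4, another E-box factor, had a response of 0.55 in WT and of 0.13 in CtslΔTEC cells, and the difference of -0.43 did not pass (adjusted p = 0.175). It was lower in stimulated CtslΔTEC than in stimulated WT cells (-0.37, adjusted p = 0.0957), the 1 gene of the 5 that passed there, where 10.6% of all genes were lower, and no gene of the list passed as lower without stimulated CtslΔTEC mouse 6 or WT mouse 5.

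The 5 genes whose centred log2 CPM lay closest to that of Myc over the 13 libraries, of 14240 compared, were Nfkb1 (root mean square difference 0.20), Slc7a1 (0.22), St6galnac4, Srgn and Sh3bp2 (0.23 each). Nfkb1, which encodes an NF-κB subunit, was 82.9 to 94.3 TPM at rest and 752 to 1211 TPM after stimulation, with responses of 3.42 in WT and 3.78 in CtslΔTEC cells. Slc7a1, an arginine transporter, was 12.5 to 18.9 TPM and then 166 to 200 TPM. The 13 libraries fall into the stimulated and unstimulated states, so the measure mostly follows the size of the response. Among the members, Mnt was the nearest to Myc, at 1.50.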

How the data were processed

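RNA-seq of sorted thymocytes gave 1 library per mouse for 13 mice in 4 groups. The authors quantified reads with kallisto (version 0.48) against Ensembl transcripts, per the study's methods, and deposited TPM, estimated counts and an effective length for each transcript. The labels name polyA RNA and the methods an rRNA depletion, so the selection step is unresolved here. Expected counts and TPM were summed to genes with GENCODE M21 (GRCm38), which paired 116397 of 117497 transcripts. The unpaired ones held 0.365 to 0.461% of counts. Summed counts were rounded.

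The unstimulated genotypes were compared over 9 libraries. The stimulated genotypes, both responses and their difference came from a 4-group model of all 13. Tests used edgeR 4.0.16 (TMM, filterByExpr, quasi-likelihood F test, adjusted p under 0.1) in R 4.3.3. They were run on simulated data in which few genes changed, which does not cover responses in which most genes pass. DESeq2 1.42.0 and limma 3.58.1 were alternatives, with other scalings, filters, covariates and each mouse left out. Transcript shares used exact permutation tests over mice, for transcripts of genes above 1 TPM with a mean share of at least 10%, and p-values were adjusted over such transcripts of all genes, a choice made after seeing the data in place of adjustment within the members. Mouse numbers did not pair the genotypes. All 10 members were named. Of other lists, the 3 genes of smallest p past the threshold were named per comparison, plus the 5 genes nearest to Myc. Other list genes named after their values were seen are marked as such. Members and lists were chosen with earlier results of these data known. Counting was not stated to use strand, so Mxd4, Mlx, Mxd3 and Mxi1 may share reads with genes on the other strand, and Max and Mxd1 with overlapping genes of their own strand. P-values measure the spread between mice.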

Additional observations from a re-analysis of the deposited data

Results flagged for a closer look

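Of 56 groups of 4 or 5 values tested for a sample that stands apart by Dixon's ratio, 4 had one, where chance gives about 1 in 20 groups. All 4 were in unstimulated WT cells. Mycn was 0.0853 TPM in WT mouse 1, which is 5 counts, with the nearest library at 0.0215 TPM. Myc-204 took 33.3% of Myc and Mlx-202 took 40.9% of Mlx in WT mouse 4. Mxi1-203 took 67.2% of Mxi1 in WT mouse 2. No member's summed level stood apart except that of Mycn.

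The responses to stimulation differed between genotypes by the edgeR test of the difference for 5 of 95 genes of the 7 pathway lists (5.26%) and for 0 of the 9 members tested. Of all genes 6.01% passed this test and 1.13% did so with a positive difference, as all 5 did. For Usp28 this was a fall in WT cells and little change in CtslΔTEC cells. That shared direction was seen after the values, and nothing particular to the lists is read from it. The differences, CtslΔTEC minus WT on the log2 scale, were 0.88 for Usp28, 0.92 for Ccnd2, 0.62 for Shmt1, 0.37 for Eif4a1 and 1.38 for Ndrg1. Each of the 5 was also lower in unstimulated CtslΔTEC cells (-0.73, -1.22, -0.42, -0.19 and -1.63), and that value enters the difference.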

How the results depend on the processing

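For the 9 tested members in 5 comparisons, 787 of 795 values under alternatives kept their side of the threshold and 8 changed it, all for Max or Mga in a response. No direction of a called value reversed. Members that passed numbered 0 in the genotype comparisons and in the difference of responses under every alternative, 5 to 7 in the WT response and 5 or 6 in the CtslΔTEC response.

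Counts over all genes moved more, and the cause was not tested. The unstimulated count of 1943 became 430 with the Y-linked covariate and 1051 with mouse number as a replicate block over 4 mice of each genotype; the numbers did not pair the mice (correlations -0.16, 0.35, -0.10 and -0.14). The stimulated count of 1898 became 1127 with the 4 stimulated libraries alone. The count of 856 for the difference became 471 at an adjusted p under 0.05. With each mouse left out in turn the counts ran from 1534 to 2343 (unstimulated), 945 to 2235 (stimulated), 334 to 1227 (difference) and, for transcript shares after stimulation, 3 to 13 with the adjustment made within the members' transcripts, or 6 to 11 over the transcripts of all genes, an adjustment chosen after seeing the data (10 with every mouse in either). The groups of 2 stimulated mice limit the stimulated count and that of the difference, and a lone library was then assumed to vary like the other groups. The transcript shares pooled the genotypes and used no such assumption. Library totals alone moved the median of all genes in the CtslΔTEC response to -0.21 from -0.06.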
